A study of Danio rerio with 56 samples.

Results

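The comparison described here sets 4 RNA libraries of zebrafish embryos with a benzo[a]pyrene-fed mother and a control father against 4 libraries of embryos whose parents both ate control food. These 8 libraries were chosen by their titles, out of 24 RNA libraries in a series of 56 samples. All fish were of the 5D strain, and the parents entered the study sexually mature, at 120 days after fertilisation. Flakes carried acetone alone or benzo[a]pyrene (BaP) in acetone at 1250 µg per g of food, equivalent to 25 µg per g of fish, and were eaten for 21 days by 20 fish in 5 tanks per treatment. The fish were then crossed, and embryos were taken at 10 hours post fertilisation (hpf). Embryos of BaP-fed fathers and control mothers, embryos of 2 BaP-fed parents, and eggs of BaP-fed or control mothers, with 4 libraries each, are used only where named. Neither the tank or spawning behind a library nor the number of embryos in it is labelled, so the p-values here reflect only how these libraries spread, which may be technical. In such bulk samples, fewer cells of a type and less RNA per cell cannot be told apart.

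BaP is a polycyclic aromatic hydrocarbon formed in combustion. In vertebrates it binds the aryl hydrocarbon receptor, a transcription factor that turns on cytochrome P450 enzymes of the CYP1 family, and these enzymes convert BaP into metabolites that bind DNA. A fish mother stores RNA in the egg, the embryo runs on this store until its own genome is switched on, and most of the stored RNA has been replaced by the end of gastrulation, the stage reached at 10 hpf. A diet of the mother can thus reach the embryo through the egg's content or the chromosomes she passes on, whereas a diet of the father acts mainly through sperm.

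The 4 libraries with a BaP-fed mother held 29855819 to 35659047 estimated reads, and the 4 control libraries 30751864 to 38130629. Across transcripts, log2 CPM (CPM, counts relative to the scaled library total) correlated at 0.931 to 0.941 among the libraries with a BaP-fed mother, at 0.931 to 0.942 among controls and at 0.928 to 0.942 between the 2 groups. A library of one group was thus about as like a library of the other as like its own group. The rows are Ensembl transcripts, and 0 of 57192 matched the gene names in use here, so no gene is named and no receptor target could be looked up.

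No transcript passed the test between the 2 groups. Of 30894 transcripts tested, 0 were called (0%) by edgeR's quasi-likelihood test at a Benjamini-Hochberg adjusted p under 0.05. At an unadjusted p under 0.05 there were 1291 (4.18%), of which 630 were higher (2.04%) and 661 lower (2.14%) with a BaP-fed mother. The median log2 fold change over all transcripts tested was 0.00, and the middle 80% lay between -0.46 and 0.44. The scaling of the libraries assumes that most transcripts do not differ, so this median could not show a shift shared by most. DESeq2, which tested a larger set of rows, called 90 of the 36881 transcripts to which it gave an adjusted p, 53 higher and 37 lower. Of these, 77 (85.6%) had a count of 0 in at least 1 of the 8 libraries, beside 22.8% of the 36881 rows given an adjusted p by DESeq2. Of the 79 calls that edgeR also tested, 66 (83.5%) held such a 0, beside 12.8% of all transcripts tested there. The groups did not overlap in 20 of these 79, beside 3.68% of all transcripts tested. These calls were chosen for a difference between the same 8 libraries, so the larger share is not separate support. A fit of only the 8 libraries called 4 (0.0143% of 27986), and without control replicate 3 the count was 1 (0.00314% of 31816).

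**Figure D1:**
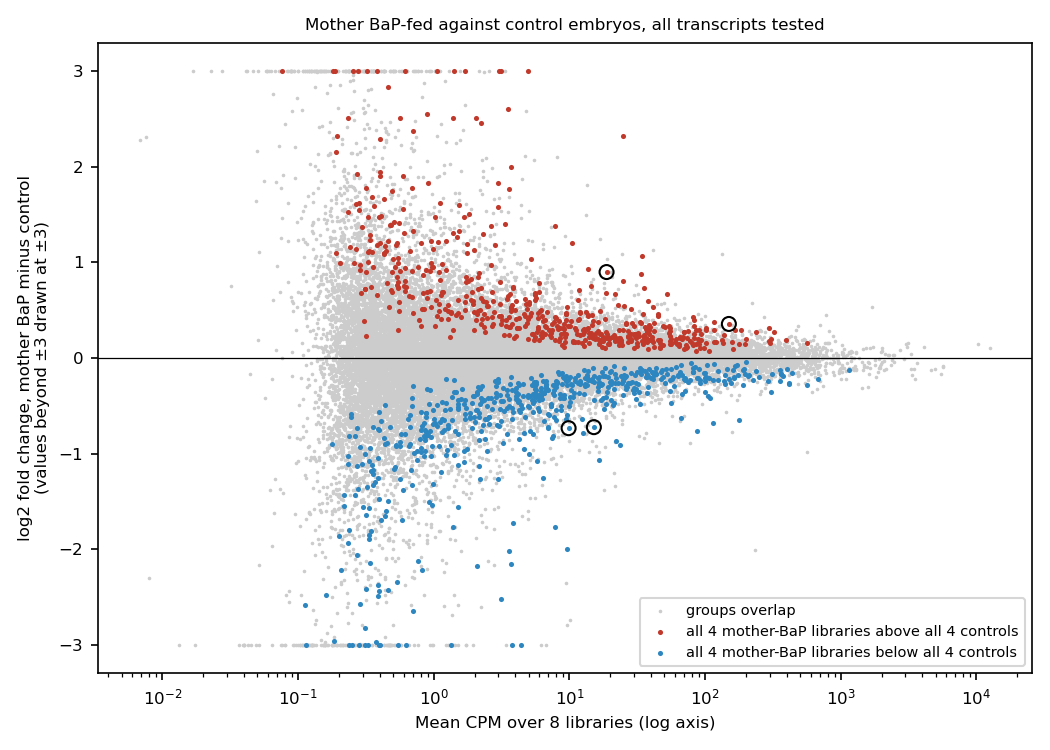
Each point is 1 transcript, with its mean CPM over the 8 libraries (log axis) against its log2 fold change, embryos of BaP-fed mothers minus control embryos, and values beyond 3 in size are drawn at 3. Red and blue points are the 551 higher and 585 lower transcripts whose groups did not overlap, circles mark the 4 named transcripts, and the spread narrows as the level increases.

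The transcript with the smallest p was ENSDART00000079201.6 (1765 bases), an embryo-enriched transcript. With a BaP-fed mother it stood at 22.6, 26.2, 22.7 and 26.3 CPM in replicates 1 to 4, and in controls at 14.6, 12.1, 12.7 and 13.1 CPM. All 4 libraries with a BaP-fed mother thus lay above all 4 controls. Groups without overlap were a condition for naming this and the next 3 transcripts. The means were 24.5 ± 2.08 and 13.1 ± 1.07 CPM (SD, n = 4 each), a log2 fold change of 0.90 ± 0.15 (SE, 95% interval 0.57 to 1.23) that did not pass (edgeR adjusted p = 0.879). Per length, its level was 13.8 ± 1.16 and 7.4 ± 0.486 TPM (the length-scaled abundance in the deposited tables). It passed in the fit of only the 8 libraries (edgeR adjusted p = 0.0475) and in DESeq2.

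The second, ENSDART00000162459.2 (6302 bases), was the more abundant, at 63.6 ± 2.86 TPM with a BaP-fed mother and 51.1 ± 2.71 TPM in controls (SD, n = 4 each). It had 171, 157, 173 and 172 CPM with a BaP-fed mother and 133, 127, 133 and 133 CPM in controls. In both groups replicate 2 was the lowest library, and the groups did not overlap. The log2 fold change was 0.36 ± 0.06 (SE, 95% interval 0.22 to 0.49), so that a change as large as 2-fold lay outside the interval, and it did not pass (edgeR adjusted p = 0.879).

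Among the transcripts with lower values, ENSDART00000052322.5 (2817 bases, embryo-enriched) came first. It had 12.1, 13.7, 9.81 and 10.1 CPM with a BaP-fed mother and 20.1, 18.1, 21.2 and 16 CPM in controls. The highest library with a BaP-fed mother was thus below the lowest control. Per length these were 8.57 ± 1.4 and 14.3 ± 1.17 TPM (SD, n = 4 each). The log2 fold change was -0.72 ± 0.16 (SE, 95% interval -1.06 to -0.39) and did not pass (edgeR adjusted p = 1). This transcript was nearly absent from eggs, at 0.2 ± 0.116 CPM in control eggs and 0.27 ± 0.142 CPM in eggs of BaP-fed mothers.

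ENSDART00000159815.3 (4165 bases, embryo-enriched) had 8.33, 6.85, 5.56 and 8.89 CPM with a BaP-fed mother and 13.1, 11.3, 12.6 and 12.4 CPM in controls. The groups did not overlap. The log2 fold change was -0.73 ± 0.16 (SE, 95% interval -1.09 to -0.38; edgeR adjusted p = 1). Its level per length was the lowest of the 4, at 1.55 ± 0.303 and 2.54 ± 0.0995 TPM. All 4 named transcripts were among the DESeq2 calls. ENSDART00000052322.5 had whole counts in all 8 libraries compared, but a fractional 733.622 in replicate 1 of the embryos of BaP-fed fathers. The other 3 had fractional estimates among the 8 libraries, which Salmon gives where reads are divided between transcripts.

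**Figure D2:**
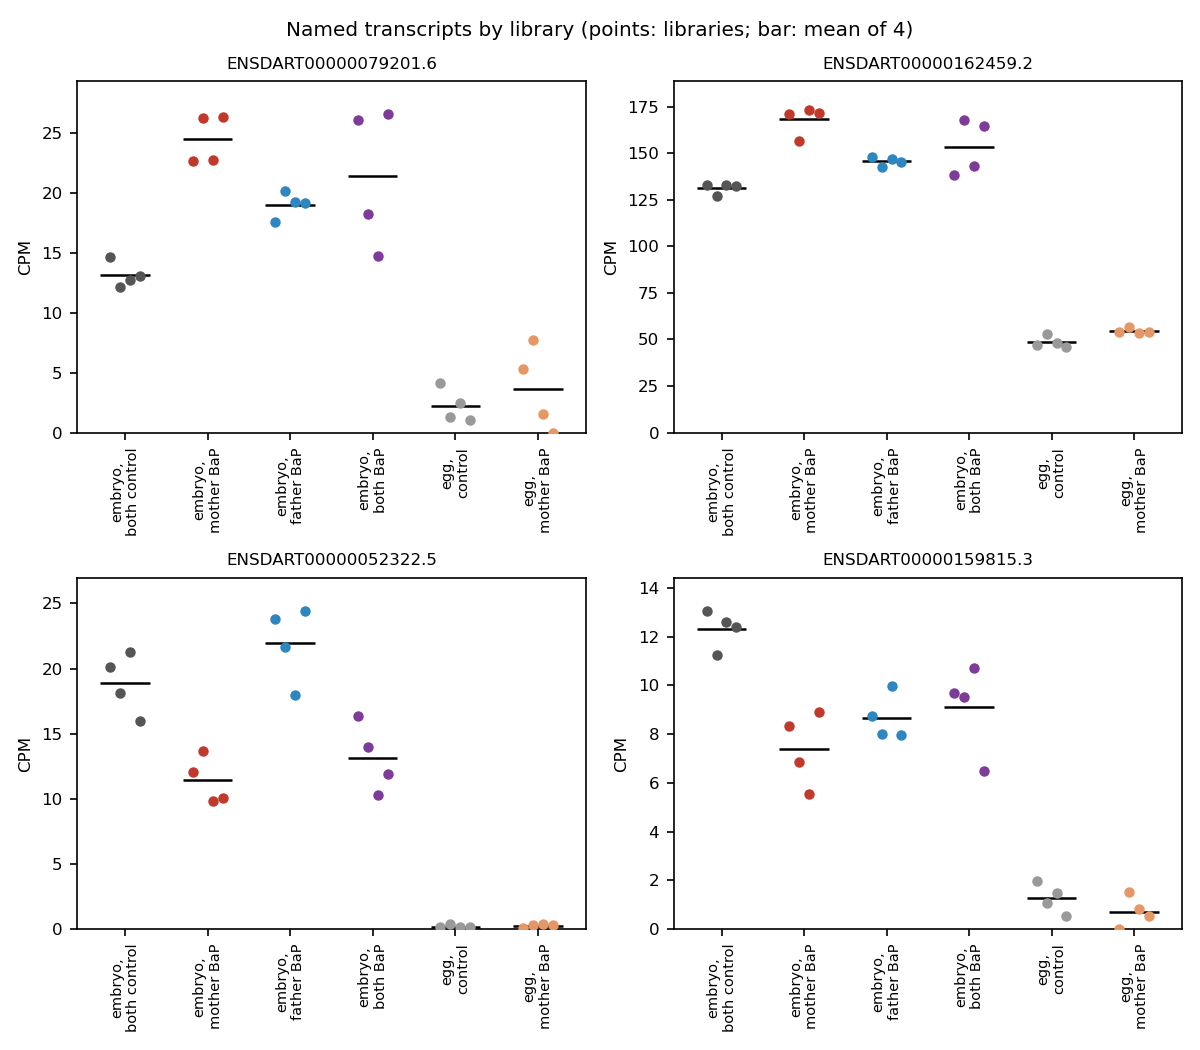
Each panel shows 1 named transcript, with CPM on a linear axis for each of the 4 libraries (points) and their mean (bar) in 4 kinds of embryo and 2 kinds of egg. In embryos with a BaP-fed mother all 4 points lie above (upper panels) or below (lower panels) all 4 control embryos, which was a condition for naming. ENSDART00000052322.5 shows the same order between embryos of 2 BaP-fed parents and of a BaP-fed father alone, where 12% of all transcripts tested did not overlap.

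The mother's diet could be read a second time in 8 other libraries, by setting embryos of 2 BaP-fed parents against embryos of a BaP-fed father alone. Of the 4 named transcripts, ENSDART00000052322.5 fell there too. With 2 BaP-fed parents it had 16.4, 14, 10.3 and 11.9 CPM, and with a BaP-fed father alone 23.8, 21.6, 18 and 24.5 CPM. These groups did not overlap, as for 12% of all transcripts tested. The log2 fold change was -0.74 ± 0.16 (SE), and it passed (edgeR adjusted p = 0.0155 over 30894 transcripts). In this contrast 5.24% of all transcripts tested passed, 2.08% as lower. With a control father the same change of the mother's diet gave -0.72, and the difference of the 2 effects was -0.01 ± 0.22 (SE, edgeR adjusted p = 0.996 for the interaction). Averaged over both kinds of father, a contrast chosen after seeing the data, its log2 fold change was -0.73 ± 0.11 (SE, edgeR adjusted p = 0.0298). That average reuses the libraries by which the transcript was chosen, so it is not separate support. In the same average ENSDART00000079201.6 and ENSDART00000162459.2 each had an edgeR adjusted p of 0.0547, and ENSDART00000159815.3 of 0.189. How many of all transcripts passed it was not counted. The call with a BaP-fed father held without 7 of the 8 libraries in turn, with adjusted p from 0.0118 to 0.0461. It ended without both-parents replicate 4 (log2 fold change -0.69, edgeR adjusted p = 0.0536) and in a fit of only those 8 libraries (-0.73, edgeR adjusted p = 0.082).

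The other 3 named transcripts did not pass with a BaP-fed father. ENSDART00000079201.6 averaged 21.4 ± 5.85 CPM with 2 BaP-fed parents and 18.99 ± 1.09 CPM when the father alone was fed BaP (SD, n = 4 each; log2 fold change 0.17 ± 0.15 SE, edgeR adjusted p = 0.613). The both-parents libraries ranged from 14.7 to 26.5 CPM, the widest span of the 4 crosses. ENSDART00000162459.2 averaged 154 ± 14.9 and 146 ± 2.17 CPM (edgeR adjusted p = 0.577), and ENSDART00000159815.3 had 9.11 ± 1.82 and 8.67 ± 0.941 CPM (edgeR adjusted p = 0.873). For these 3, every library of both crosses lay on the same side of all 4 control embryo libraries as the cross with only the mother BaP-fed. ENSDART00000079201.6 had at least 17.5 CPM with only the father BaP-fed and 14.7 CPM with both parents, against at most 14.6 CPM in controls. For ENSDART00000162459.2 these were 143, 138 and 133 CPM. ENSDART00000159815.3 had at most 9.98 and 10.7 CPM, against at least 11.3 CPM in controls. The control embryos thus stood apart from all 3 other crosses. The 3 crosses share the control libraries. The interaction did not pass for any of the 3 (edgeR adjusted p from 0.139 to 0.197).

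More transcripts were called for the mother's diet with a BaP-fed father than with a control father. There, 1618 of 30894 transcripts were called (5.24%), 976 higher (3.16%) and 642 lower (2.08%). Leaving out both-parents replicate 1 or 4 brought this to 666 of 31692 or 730 of 31731 calls. Leaving out father replicate 1 or 4 brought it to 770 of 31844 or 826 of 31798. The difference between the 2 effects was itself tested as the interaction, which called 278 (0.9%), and 90 to 175 when any 1 library of mother-fed or control embryos was left out. Fitted only over transcripts with whole counts, the interaction called 2 of 5481. The contrast with a BaP-fed father has embryos of BaP-fed fathers alone as its baseline, so a transcript low in that cross also counts as higher in it. Its crosses also differed as whole libraries. Transcripts over 5000 bases took 14.28 to 14.97% of the counts with only the father BaP-fed and 16.07 to 17.07% with both parents BaP-fed. A count was found for 36075 to 36595 and for 37518 to 37689 transcripts, in that order. The 100 transcripts most abundant over these 2 crosses took 21.43 to 22.35% and 20 to 20.84% of the counts, in the same order. The library totals and the egg- and embryo-enriched shares described below overlapped. Both-parents replicate 2 had an egg-enriched share of 1.043%, beside 0.4238 to 0.4775% in the rest of its cross. What part these differences had in the calls was not tested.

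Of the 1136 transcripts whose groups did not overlap with a control father, 108 (9.51%) also did not overlap in the same direction with a BaP-fed father and 76 (6.69%) did in the opposite one. As shares of the 3710 without overlap there (12% of those tested), these were 2.91% and 2.05%. The 12% counts both directions together, whereas 9.51% and 6.69% each count 1 direction, so neither alone is to be set against it. At 2 CPM or more, the 100 transcripts with the smallest p with a control father were followed, and 60 (60%) had the same sign with a BaP-fed father, beside 55% of the 18445 that reach this level. For the 53 higher ones the log2 fold changes had medians of 0.40 with a control father and 0.06 with a BaP-fed father, and for the 47 lower ones of -0.51 and -0.17. Across the 18445 transcripts the 2 sets of fold changes correlated at a Pearson's r of 0.226 (Spearman 0.169). Transcripts are not independent replicates, and reads divided between isoforms are shared among them.

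**Figure D3:**
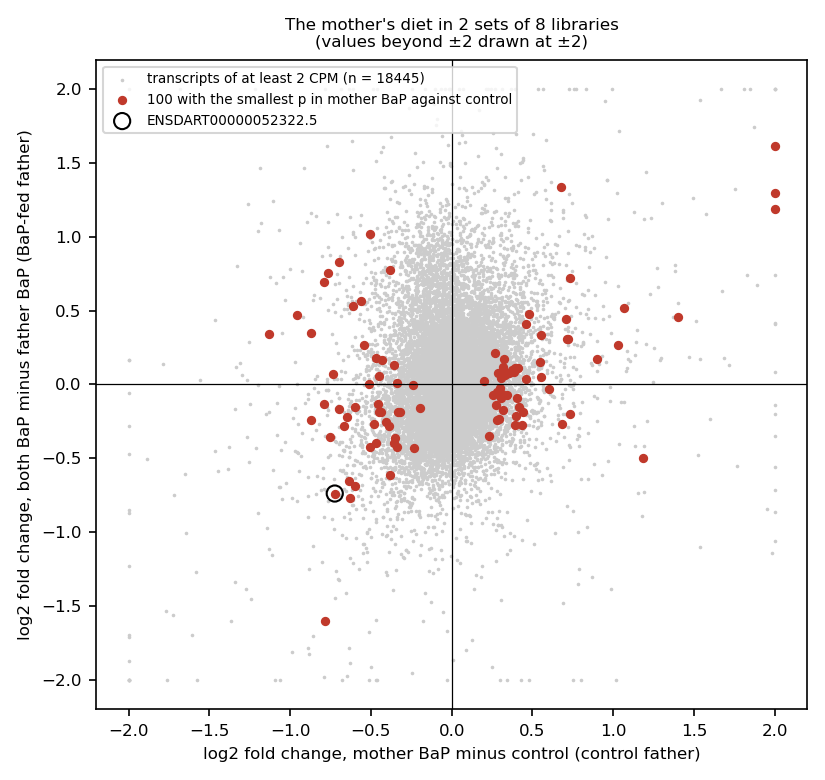
Each grey point is 1 of 18445 transcripts of at least 2 CPM, with its log2 fold change for the mother's diet with a control father (horizontal) and with a BaP-fed father (vertical), from 8 libraries each, and values beyond 2 in size drawn at 2. The 100 transcripts with the smallest p in the horizontal contrast (red) have the same sign in the vertical one in 60 cases, and ENSDART00000052322.5 (circle) lies at -0.72 and -0.74.

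In eggs, where the mother's diet acts before fertilisation, 0 of 29023 transcripts passed (0%; edgeR), with 1044 (3.6%) at an unadjusted p under 0.05 and 774 (2.67%) without overlap. DESeq2 called 106 of the 47739 it tested in eggs. The edgeR count was 2 without control egg replicate 3 or 4 and 1 without replicate 4 of the eggs of BaP-fed mothers. ENSDART00000162459.2 had 54.2, 56.8, 53.6 and 54.0 CPM in eggs of BaP-fed mothers and 47.0, 52.9, 48.1 and 45.9 CPM in control eggs. These groups did not overlap, in the same order as in embryos, but the difference did not pass (log2 fold change 0.17 ± 0.07 SE, edgeR adjusted p = 1). ENSDART00000079201.6 stood at 3.65 ± 3.51 and 2.23 ± 1.38 CPM in these eggs and ENSDART00000159815.3 at 0.719 ± 0.637 and 1.27 ± 0.618 CPM (SD, n = 4 each), and both overlapped. Of the 100 transcripts with the smallest p in embryos, 91 were tested in eggs and 53 of these (58.2%) had the same sign, beside 54.5% of 17063 at this level.

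Groups without overlap were looked at next, because they show the libraries themselves. All 4 libraries with a BaP-fed mother lay above all 4 controls for 551 transcripts (1.78%) and below for 585 (1.89%), 3.68% together. Most such differences were small. At 2 CPM or more there were 773 (4.19%), with a median log2 fold change of 0.29 for the 376 higher and -0.30 for the 397 lower. Only 19 higher and 16 lower reached 2-fold. Of these, 12 of the 19 and 7 of the 16 had a count of 0 in at least 1 of the 8 libraries, beside 12.8% of all transcripts tested at any level. Of the same transcripts, 14 of the 19 and 10 of the 16 had the same sign with a BaP-fed father, beside 55% of all 18445 of at least 2 CPM.

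Other transcripts were present in 1 group and listed at or near 0 in the other, and 3 of them were the remaining calls of the fit of 8 libraries. ENSDART00000189264.1 (1119 bases) had 5.11, 6.51, 5.19 and 8.09 CPM with a BaP-fed mother and 0 in all 4 controls (edgeR adjusted p = 0.00642 in that fit and 1 in the fit of 16 libraries). Against a floor of 3 counts over the control group it was at least 274-fold higher. This floor covers counting error only, not how reads are divided between isoforms, so these folds are not limits on the whole error. The transcript was also at 0 in the 4 libraries of BaP-fed fathers and in 3 of the 4 with 2 BaP-fed parents, while the last held 23.0 CPM. Control eggs had 15.1, 0, 35.5 and 20.4 CPM and eggs of BaP-fed mothers 0, 7.59, 8.81 and 3.28 CPM. Egg libraries of a single group were thus with and without it.

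ENSDART00000109340.5 (1282 bases) had 7.23, 6.04, 5.31 and 5.5 CPM with a BaP-fed mother and 0.003 estimated counts in all control libraries together, at least 270-fold higher by the same floor (edgeR adjusted p = 0.005 in the fit of 8 libraries). Embryos of BaP-fed fathers had 7.01, 5.24, 0 and 0 CPM and those of 2 BaP-fed parents 9.86, 6.0, 14.4 and 0 CPM. ENSDART00000171039.2 (1276 bases) had 0 in all 4 libraries with a BaP-fed mother and 6.76, 7.85, 10.6 and 4.97 CPM in controls. By that floor, for counting error only, it was at least 325-fold lower (edgeR adjusted p = 0.0122 in the fit of 8 libraries). Embryos of BaP-fed fathers had 0, 0, 5.32 and 8.33 CPM and those of 2 BaP-fed parents 0, 2.08, 0 and 13.2 CPM. In the fit of 16 libraries, which reads the spread of all crosses, neither passed (edgeR adjusted p = 1 for each).

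ENSDART00000160338.2 (1545 bases) was the single call without control replicate 3 (edgeR adjusted p = 0.000583). It had 2.91, 2.01, 4.71 and 2.48 CPM with a BaP-fed mother, and 0, 0, 1.38 and 0 CPM in controls, where replicate 3 alone held reads. It was also found in every library of BaP-fed fathers (2.01 to 3.83 CPM), of 2 BaP-fed parents (1.6 to 3.56 CPM) and of eggs (3.06 to 6.8 CPM), so the control embryos were the group that stood apart.

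**Figure D4:**
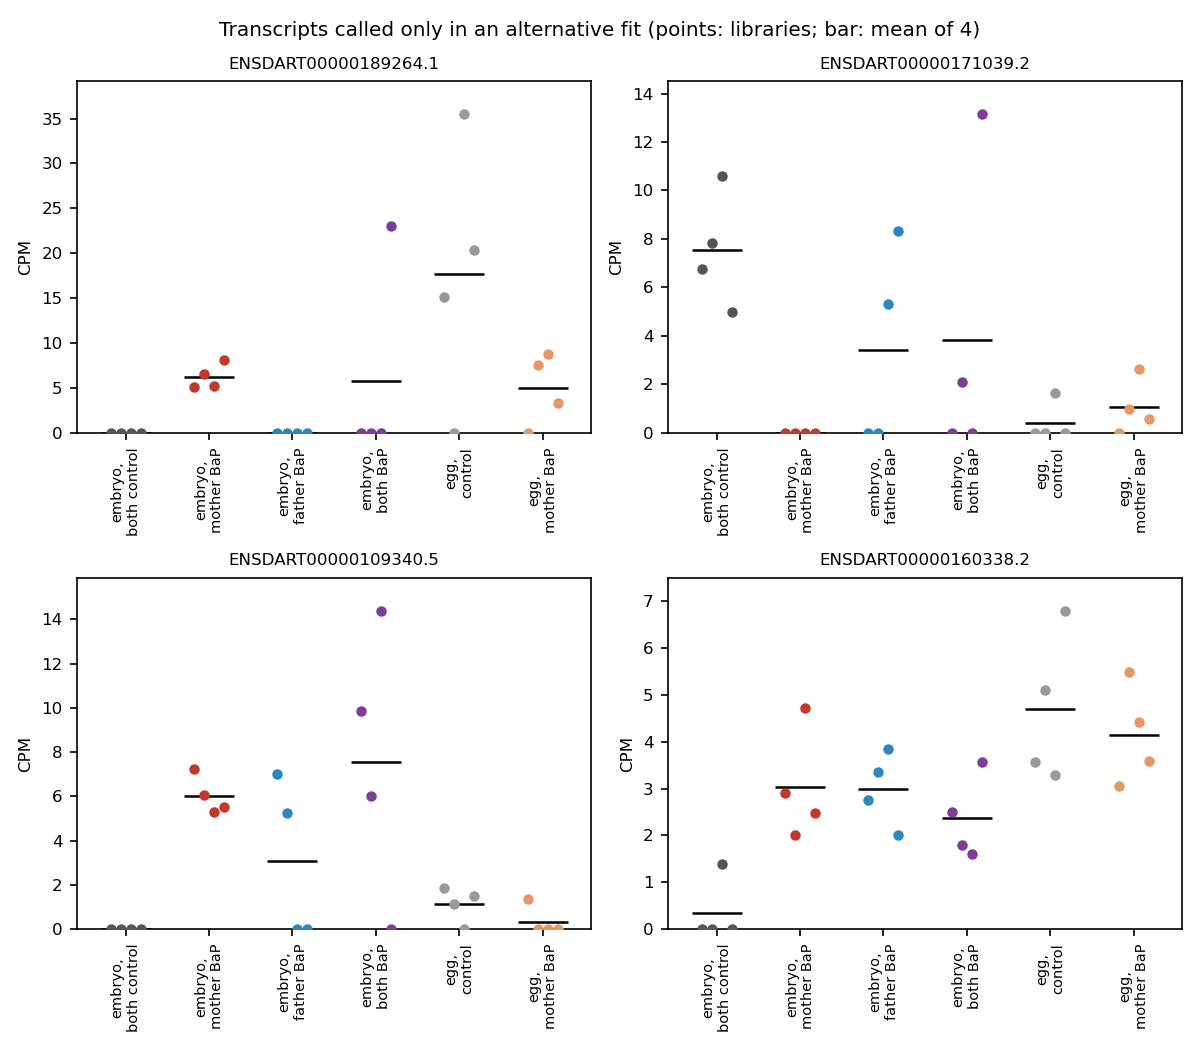
Each panel shows 1 transcript called only in an alternative fit, with CPM on a linear axis for each library (points) and the mean of 4 (bar) in 4 kinds of embryo and 2 kinds of egg. In 3 of the 4 panels the libraries of other single groups are split between 0 and several CPM, and ENSDART00000160338.2 is at 0 in 3 control embryo libraries only.

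Presence or absence of this kind was also common within groups. A transcript with at least 50 estimated counts in 1 library and 0 in another of the same cross was found 764 times among embryos of BaP-fed mothers (2.47% of those tested) and 757 times among controls (2.45%). Of all 57192 rows, 23 had a count in all 4 libraries with a BaP-fed mother and none in controls, and 23 the reverse. In 45 of these 46, another cross held libraries both with and without the transcript. The median sum over the group that held it was 14 estimated counts, and only 3 of those present with a BaP-fed mother and 6 of those present in controls had a sum over 50.

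The precision of a fold change depended on the level of the transcript. The 95% interval of the fold change, taken for each transcript on its own, lay within 2-fold in either direction for 18410 of 30894 transcripts (59.6%). This share was 7.55% for 8906 transcripts under 1 CPM, 66.7% for 11616 at 1 to 10 CPM, 95.8% for 8385 at 10 to 100 CPM and 98.6% for 1987 of at least 100 CPM. The middle 80% of the 1987 most abundant transcripts had log2 fold changes between -0.14 and 0.14. The median SD over 4 libraries on the log2 scale was 0.18 with a BaP-fed mother and 0.196 in controls, over 18445 transcripts of at least 2 CPM, and 0.217 and 0.226 with only the father or both parents BaP-fed. Below 1 CPM, the interval mostly did not exclude a 2-fold change at this depth. These intervals are not the adjusted test. A change near 2-fold could fail that test well above 1 CPM, as ENSDART00000079201.6 did at a mean of 18.8 CPM (log2 fold change 0.90, edgeR adjusted p = 0.879).

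**Figure D5:**
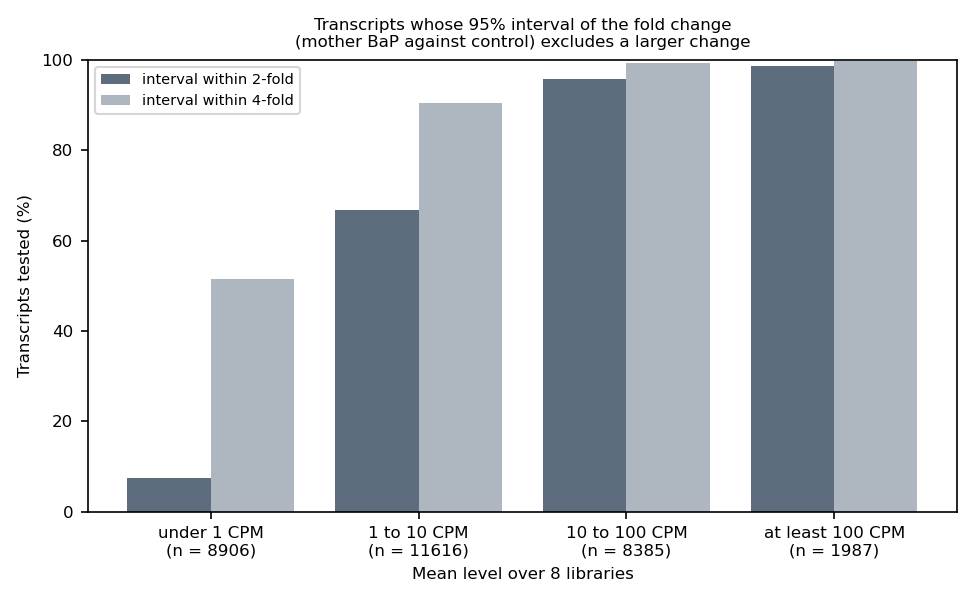
Bars give the percentage of transcripts tested, in 4 classes of mean CPM, whose 95% interval of the fold change (embryos of BaP-fed mothers against control embryos) lies within 2-fold (dark) or 4-fold (light). The dark bars increase from 7.55% under 1 CPM to 98.6% at 100 CPM or more.

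Stored and newly made RNA were compared through transcripts with a log2 difference of 3 or more between the 8 egg libraries and the 8 embryo libraries of the other 2 crosses. The embryo-enriched class took 23.3, 23.1, 23.9 and 22.9% of the counts in embryos of BaP-fed mothers and 23.3, 23.1, 23.7 and 23.5% in control embryos, against 1.24 to 1.5% in eggs, so both groups carry the RNA of the labelled stage. The egg-enriched class took 0.499, 0.451, 0.415 and 0.428% with a BaP-fed mother and 0.425, 0.44, 0.402 and 0.442% in controls, against 19.6 to 22% in eggs. Replicate 1 of the mother-fed embryos had the most egg-type RNA of the 8, and the groups overlapped. The means were 0.448 ± 0.037 and 0.427 ± 0.0186% (SD, n = 4 each; two-sided exact permutation p = 0.40, adjusted over 6 measures 0.60). Without that replicate the difference went from 0.0212 to 0.00423 percentage points.

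The transcripts of these classes were also taken singly. Over the 2120 egg-enriched ones tested, the median log2 fold change was 0.08, beside 0.00 for all transcripts tested. Measured from the control mean, their median was 0.28, 0.14, -0.03 and 0.03 in mother-fed replicates 1 to 4, beside -0.01 to 0.06 in control replicates, so replicates 1 and 2 carried most of it. Each control library is part of that control mean, which narrows the control range by construction. Groups did not overlap for 44 higher (2.08%) and 22 lower (1.04%) of them, beside 1.78% and 1.89% of all. The 3393 embryo-enriched transcripts had a median of -0.02, with 61 higher (1.8%) and 72 lower (2.12%) without overlap. The egg-enriched class had few transcripts whose interval excluded a 2-fold change (22.4%), against 79.9% of the embryo-enriched class.

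The groups also overlapped in the other measures of the whole library. A count was found for 37804, 36601, 37066 and 36402 transcripts with a BaP-fed mother and for 37503, 37031, 37102 and 37007 in controls. Mother-fed embryos thus held both the richest and the poorest library of the 8 (means 36968 ± 623 and 37161 ± 232, SD, n = 4 each; two-sided exact permutation p = 0.60). Transcripts over 5000 bases took 15.9 ± 0.405 and 16.05 ± 0.373% of the counts (exact permutation p = 0.514), and the 100 transcripts most abundant in the other 2 crosses took 20.9 ± 0.13 and 21.1 ± 0.437% (exact permutation p = 0.40; n = 4 each). The adjusted p was 0.60 for each of the 6 measures, which included the total. The smallest p that 4 against 4 libraries allow is 0.0286, so after adjustment over 6 measures, 1 measure by itself could not pass.

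By length, among transcripts of at least 2 CPM, those of at most 1000 bases leaned to lower values. Of 2793 such transcripts, 85 were lower (3.04%) and 43 higher (1.54%) without overlap, beside 2.15% and 2.04% of all 18445, and their median log2 fold change was -0.03. Of 7693 transcripts of 2000 to 5000 bases, 171 were higher (2.22%) and 138 lower (1.79%), with a median of 0.02. Among all 30894 tested, 5499 had whole counts in all 16 embryo libraries, which does not by itself show that no reads were shared. Of these transcripts, 121 were higher (2.2%) and 72 lower (1.31%) without overlap, with a median of 0.02. Scaled and tested on their own, this split was 99 higher and 88 lower of 5481, a smaller lean in the same direction. The filter and the fit were redone along with the scaling, so what narrowed the lean was not tested. How much the medians of these sets vary between libraries was not tested, nor was their part in the results above.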

How the data were processed

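The 24 RNA tables were used, and the bisulfite samples were not analysed here. Per the labels' protocols, ribosome-depleted total RNA was sequenced as read pairs. FastQC, Salmon, DESeq2 and GRCz11 are named in the submitters' processing notes, without versions. The authors' deposited tables hold an estimated count (expected count) and a TPM value for each of 57192 transcripts, per the file headers. Isoforms share reads, and Salmon divides these by estimate.

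Deposited estimated counts were rounded and tested in edgeR 4.0.16 (limma 3.58.1, R 4.3.3) with TMM factors, filterByExpr, glmQLFit with robust=TRUE and glmQLFTest. All 16 embryo libraries were fitted with a mean per cross, and eggs were fitted alone. The cross labelled only BaP was read as both parents BaP-fed. CPM used TMM-scaled totals, log2 CPM a prior count of 2, and TPM are the deposited values. A count was taken as whole within 1e-06. Groups did not overlap where all 4 values of one lay above all 4 of the other. Standard errors came from the fold change and F. The script was tested on simulated data. Floors cover counting error only.

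Named transcripts were the 2 higher and 2 lower of at least 2 CPM without overlap, called ones first, then by p, and every transcript of a count of 5 or fewer in another fit. The planned gene lists need symbols and were not computed. DESeq2 1.42.0, voom, other scalings, filters, a replicate block and left-out libraries were tried. The comparison and lists were chosen with earlier results of these data known.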

Additional observations from a re-analysis of the deposited data

Results flagged for a closer look

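In 4 of 36 sets of 4 libraries, 1 library stood far from the other 3, and chance alone gives about 1 in 20 such sets. ENSDART00000162459.2 was lowest in replicate 2 of both embryo groups, at 157 CPM with a BaP-fed mother and 127 CPM in controls, and highest in replicate 2 of the eggs of BaP-fed mothers, at 56.8 CPM. ENSDART00000052322.5 was highest in control egg replicate 2, at 0.372 CPM. No named transcript passed the test of the difference between the mother's effect with a control and with a BaP-fed father.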

How the results depend on the processing

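The count of 0 calls between embryos of BaP-fed mothers and controls held under RLE and upper-quartile scaling, no filter, a stricter filter, whole counts alone, limma-voom and the replicate block. It was 4 in a fit of only the 8 libraries, 90 in DESeq2 and 0 to 1 when a library was left out. The log2 fold changes of the 4 named transcripts kept their sign in all 16 alternatives each. Groups without overlap, the condition for naming, all but fix this sign in the same libraries, so it is not separate support. All 4 passed in DESeq2, and ENSDART00000079201.6 also passed in the fit of 8 libraries. Replicate numbers did not pair the libraries (correlations of same-numbered deviations -0.114 to -0.0162), and with the replicate block 0 transcripts were called here, 0 in eggs, 144 for the interaction and 1364 for the mother's diet with a BaP-fed father. Transcripts without overlap numbered 187 of 5481 with whole counts (99 higher and 88 lower), a share near the 3.68% of all tested (1136 of 30894). They numbered 1917 of 31860 to 2340 of 31835 when a library was left out, where fewer libraries overlap less by construction. The share whose interval excluded a 2-fold change was 96.3% from 10 CPM and 54.4% to 55.2% when a library was left out. With a BaP-fed father the count was 1066 of 49727 without a filter and 3052 of 49298 in DESeq2. It was 666 of 31692 to 1498 of 31753 when a library was left out. The DESeq2 totals given here, for the interaction and for eggs count rows with an unadjusted p. The 36881 rows given above for embryos of BaP-fed mothers are the smaller set with an adjusted p. The interaction count, 278 of 30894 in the main fit, was 151 of 49727 without a filter and 1074 of 49298 in DESeq2. It was 2 of 5481 over whole counts, and 90 of 31860 to 175 of 31816 when a library was left out. In eggs DESeq2 called 106, and 0 to 2 were called when a library was left out. Of the 100 transcripts of smallest p, 50% to 75% kept their sign with a BaP-fed father when a library was left out of the choice. Without 1 library, differences (mother minus control) ran from -2460000 to 202000 reads in total, -0.325 to 0.0131 percentage points in the embryo-enriched share and -0.304 to 0.019 in that of transcripts over 5000 bases. None passed, which 1 measure by itself could not do after adjustment. The causes were not tested. The alternatives for the interaction, the 100 transcripts and the named transcripts with a BaP-fed father were chosen after seeing the data. Levels under 1 CPM limit what could be detected, and above that level a change near 2-fold could also fail the adjusted test.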
